A study of Mus musculus with 4 samples.

Results

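The 38 genes described here carry out the replication and damage checkpoint, homologous recombination and the Fanconi pathway, and they were listed by name, with earlier results of these data known. All 38 were matched to identifiers in the count tables, and all 38 were among the 16500 genes tested. RNA was sequenced from CD117+ hematopoietic stem and progenitor cells (HSPCs) of C57Bl/6 mice whose Chaf1b gene is floxed on both alleles, in 2 control and 2 Chaf1b-deleted libraries. Controls received the empty retroviral vector MIGR1 and kept the genotype Chaf1b (fl/fl). Deleted cells received MIGR1-Cre and are labelled Chaf1b (-/-). All cells grew with the cytokines SCF (50 ng/mL), IL6 (20 ng/mL) and IL3 (10 ng/mL) and with LDL, and eGFP-positive cells were sorted 48 h after spinfection. Only the deleted cells carried Cre, so an effect of Cre itself and of Chaf1b loss cannot be told apart. Mice of both sexes, aged 8 to 12 weeks, served as donors across the work. The labels do not say whether replicates came from separate animals, so the p-values measure the spread between these libraries, which for the controls may be technical.

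Chaf1b encodes a subunit of CAF-1, the chaperone that places histones on newly made DNA. When a replication fork stalls, single-stranded DNA recruits the kinase ATR, which signals through CHK1 to slow the cell cycle and hold further origins, while the kinase ATM answers broken ends through CHK2. Broken ends are cut back and repaired on the sister chromatid by the BRCA proteins and their partners, and the Fanconi proteins direct the removal of links between DNA strands. Inherited loss of Fanconi genes is known for bone marrow failure, in which stem and progenitor cells are lost.

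The fitted level of 37 of the 38 genes was lower in Chaf1b-deleted than in control HSPCs, against 52.5% of all genes tested. The median log2 fold change of the 38 genes was -0.45, beside -0.03 over all genes tested, and single values ranged from -0.81 to 0.16. None of the 38 passed the test: a gene was called at a change of 1.5-fold or more with an adjusted p under 0.05, by the quasi-likelihood test of edgeR, with p-values adjusted by Benjamini-Hochberg over all genes. That test called 0.376% of all genes in either direction. The adjusted p-values of the members ranged from 0.154 for Fancd2 to 0.944 for Atrip. At an unadjusted p under 0.05, 13 of the 38 were lower and 0 were higher, where 3.1% of all genes were lower and 9.15% were higher. Other tests called 0 members (edgeR's exact test, which called 0.224% of all genes as lower, and its likelihood ratio test) or 1 member (DESeq2, which called 0.21% of the genes it adjusted as lower). The DESeq2 call was Fancd2, with a log2 fold change of -0.81 and an adjusted p of 0.0371.

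Levels are given as CPM, the count of a gene per 1000000 counts that its library had on genes, and pairs of values are in the order replicate 1, replicate 2. In 29 of the 38 genes both deleted libraries lay under both control libraries, a pattern that 22.9% of all genes showed, and in 0 genes both lay over both controls, which held for 21.4% of all genes. An exact permutation test of 2 libraries against 2 cannot go below p = 0.333, so no such test was run on single genes. Deleted replicate 1 lay under both controls for 36 genes and deleted replicate 2 for 30. Deleted replicate 2 lay over both controls for 0. The shares of all genes with these patterns are not given here. Over all genes tested, the median log2 ratio to the control mean was -0.17 in deleted replicate 1 and 0.065 in deleted replicate 2. The plot of all 38 genes by library shows the spread of the members.

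**Figure D1:**
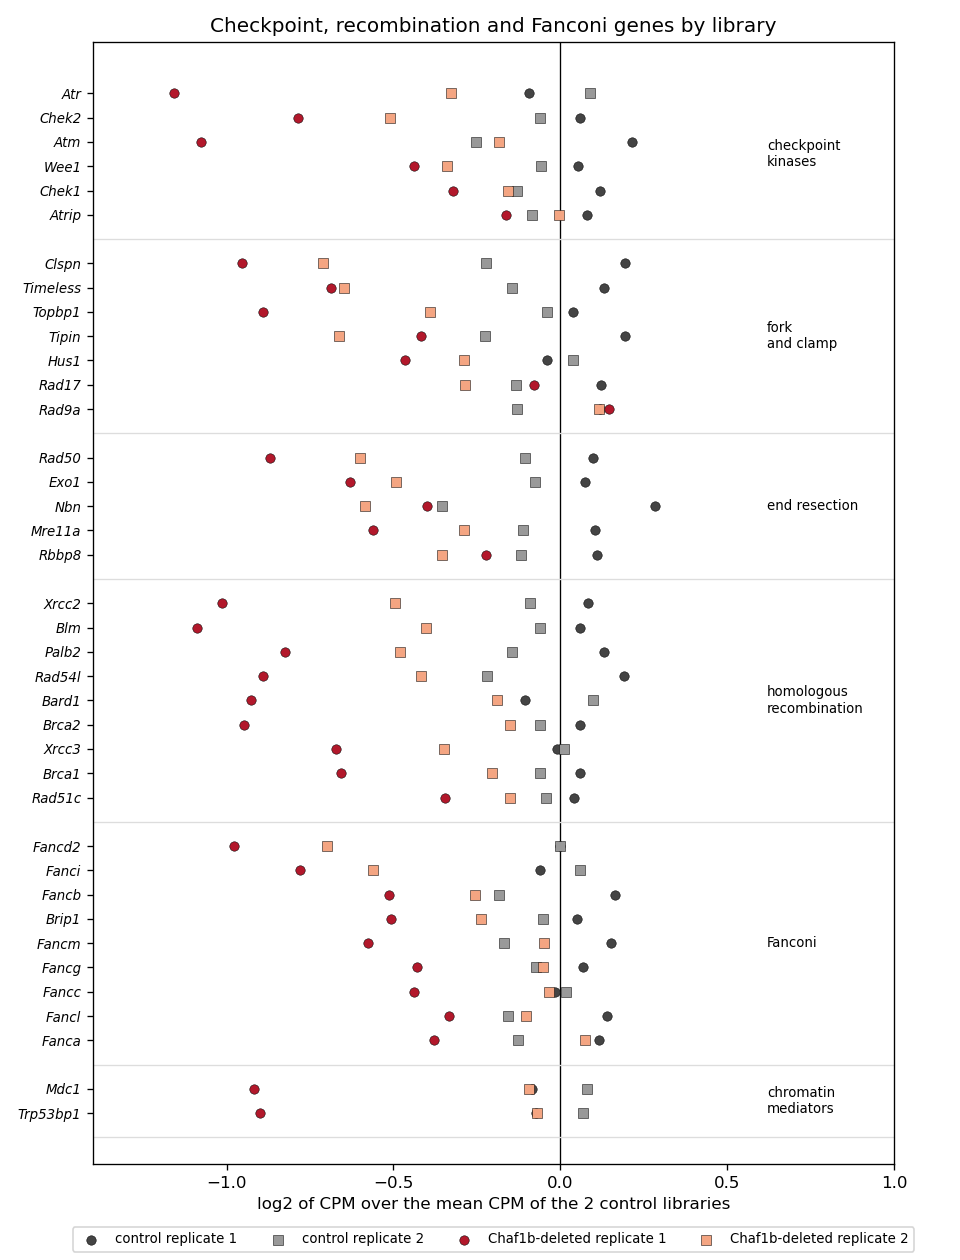
Each row is a gene, grouped by role, and each symbol a library. The x axis is the log2 of the gene's CPM over the mean CPM of the 2 control libraries, so 0 is the control mean. Deleted replicate 1 (red circles) lies under both controls in 36 of 38 genes and deleted replicate 2 (orange squares) in 30. The median over all genes tested is -0.17 in deleted replicate 1 and 0.065 in deleted replicate 2.

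The libraries held 18468637 to 25409926 counts on genes. Chaf1b, the deleted gene, measured 80.3 and 57.9 CPM in controls and 16.1 and 17.9 CPM in deleted libraries, a log2 fold change of -2.01 with an adjusted p of 0.0330 in edgeR's quasi-likelihood test, and with a block for replicate number the adjusted p rose to 0.0590. Chaf1a, the partner subunit, had a log2 fold change of -0.43 and an adjusted p of 0.569 in the same test. Kit, which encodes CD117, measured 95.6 to 124 CPM, and all 8 stem and progenitor markers were counted in the libraries. Neutrophil markers were abundant, with a summed level of 47230.1 and 55130.4 CPM in controls and 68730 and 51839 CPM in deleted libraries. Deleted replicate 1 stood apart. Its Xist level was 336 CPM, against 1.14 to 1.30 CPM in the others. It held 3 counts of 4 Y-linked genes, against 5805 to 7771. Its cells thus came from other animals than those of deleted replicate 2 and of both controls. In this library an effect of donor or sex and an effect of the deletion cannot be told apart. Its median log2 ratio to the control mean over 25 interferon-response genes was 3.39, against 0.33 in deleted replicate 2. Without deleted replicate 1, the median log2 fold change of the 38 genes was -0.37, beside -0.016 over all genes tested, and 37 were lower. In bulk RNA, fewer cells that express a gene and less RNA per cell cannot be told apart.

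Promoter sequences are shown because E2F-type letters, the sites through which E2F factors switch on S phase genes, were found in 8 of the 29 members that have an entry in the RefSeq promoter table. Each entry runs from 250 bases before the annotated start to 50 after it on the GRCm38.p6 build. The letters searched were TTTGGCGC, TTTGCCGC, TTTCGCGC and TTTCCCGC on both strands, and a match may share an edge base with a match of CCAAT. Stretches of the 8 genes follow, 5′ to 3′ on the gene's strand, with the matching letters in capitals. Rad51c has 2 starts in the table and a match at each.
Chek2, a checkpoint kinase, chr5:110839801-110839868, + strand: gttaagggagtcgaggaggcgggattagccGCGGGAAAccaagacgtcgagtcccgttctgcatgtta
Topbp1, the activator of ATR, chr9:103305168-103305235, + strand: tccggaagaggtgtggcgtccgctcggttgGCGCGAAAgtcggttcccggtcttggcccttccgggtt
Clspn, the adaptor of CHK1, chr4:126556971-126557029, + strand: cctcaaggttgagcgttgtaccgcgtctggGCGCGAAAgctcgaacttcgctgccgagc
Bard1, the partner of BRCA1, chr1:71103144-71103211, - strand: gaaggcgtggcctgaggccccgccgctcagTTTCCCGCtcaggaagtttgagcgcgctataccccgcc
Brca2, of homologous recombination, chr5:150522423-150522490, + strand: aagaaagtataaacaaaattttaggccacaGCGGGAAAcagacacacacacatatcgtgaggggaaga
Rad51c, of homologous recombination, chr11:87404458-87404525, - strand: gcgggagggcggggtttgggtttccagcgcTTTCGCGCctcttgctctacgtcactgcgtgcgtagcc
Rad51c at its other start, chr11:87404922-87404989, - strand: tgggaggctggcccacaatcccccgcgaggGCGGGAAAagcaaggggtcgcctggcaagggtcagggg
Fancg, of the Fanconi core complex, chr4:43010316-43010383, - strand: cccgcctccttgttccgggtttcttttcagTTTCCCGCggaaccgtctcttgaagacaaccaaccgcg
Mdc1, a reader of damaged chromatin, chr17:35841452-35841519, + strand: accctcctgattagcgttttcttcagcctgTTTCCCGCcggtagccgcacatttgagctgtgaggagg

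The matches began between 209 bases before the start, in Bard1, and 22 bases after it, in Clspn. The share of members with these letters was 27.6%, against 4.45% of the 9870 genes tested that have an entry and 2.26% of all 32851 promoter windows in the table. Among S phase genes the share was 46.7% (7 of 15), among G2/M genes 6.67% (1 of 15), among p53 targets 0 of 14 and among other genes of these pathways 7.14% (2 of 28). The median GC content was 59.7% in the windows of members and 60% in those of the genes tested, and of the windows of genes tested at or over the members' median, 4.63% held the letters. A second set of letters, TTTGAA on either strand, known as the CHR element of genes expressed late in the cycle, stood in 2 of the 29 members (6.90%), in Hus1 and Bard1, against 14.5% of genes tested and 11 of 15 G2/M genes. CCAAT on either strand stood in 16 members (55.2%), against 42.6% of genes tested. The members' fold changes differed little by the E2F-type letters: the median log2 fold change was -0.50 for the 8 genes that hold them, with values from -0.81 to -0.21, and -0.40 for the 21 that do not. The match is a description of letters and shows no binding.

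Levels were compared between genes per kb of annotated exon. In controls Tipin was the highest of the 38 at 115 CPM per kb, followed by Topbp1 at 84.4, Rbbp8 at 28.2 and Blm at 27.8 CPM per kb. Tipin has the shortest annotated exons of the 38 and shares its strand with the overlapping SCARNA14, so counts could pass between them. Rad51c at 1.45, Fancc at 1.49 and Fancl at 3.39 CPM per kb were the lowest. Tipin, Topbp1 and Rbbp8 were also the highest in the deleted libraries, at 79.6, 55.0 and 23.2 CPM per kb. Counts of a member in a library ran from 106 to 10908, which gives a Wilson 95% interval of ± 1.88% to ± 19.1% of the level, for counting error only. The summed level of the 38 genes was 3068 and 2742 CPM in the controls and 1782 and 2293 CPM in the deleted libraries, so the deleted libraries differed from each other by more than the controls did.

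The 6 genes of the checkpoint kinases had a median log2 fold change of -0.47, or -0.34 without deleted replicate 1. In 4 of them both deleted libraries lay under both controls, beside 22.9% of all genes. Atr, on chromosome 9 at 95758016-95852063 of NCBIM37, encodes the kinase that answers stalled forks. It measured 92.1 and 104 CPM in controls and 44.1 and 78.3 CPM in deleted libraries, with a log2 fold change of -0.68 (SE 0.26, unadjusted p = 0.0291, adjusted p = 0.331, edgeR). Both deleted libraries were lower, and deleted replicate 1 was at 44.9% of the control mean while replicate 2 was at 79.7%. Atm, the kinase that answers broken ends, measured 122 and 88.4 CPM in controls and 49.8 and 92.6 CPM in deleted libraries, a log2 fold change of -0.57 (SE 0.29, adjusted p = 0.494, edgeR). Its groups overlapped, since deleted replicate 2 lay between the controls. Chek2, the kinase that acts after ATM, was at 44.3 and 40.8 CPM against 24.6 and 29.8 CPM, with a log2 fold change of -0.63 (SE 0.21, unadjusted p = 0.0176, adjusted p = 0.278, edgeR). All 4 values stood apart by group, and its coordinates are chromosome 5, 111269036-111303152.

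Chek1, the kinase that acts after ATR to hold further origins, measured 41.0 and 34.6 CPM in controls and 30.2 and 33.9 CPM in deleted libraries. Its log2 fold change was -0.22 with a 95% interval of -0.71 to 0.28, and deleted replicate 2 was close to control replicate 2. Wee1, the kinase that holds CDK1 inactive, was at 36.5 and 33.8 CPM against 26.0 and 27.8 CPM, a log2 fold change of -0.36 with a 95% interval of -0.86 to 0.13. Its groups did not overlap, and the gap between them was wider than the spread within either. Atrip, the partner that brings ATR to single-stranded DNA, had a log2 fold change of -0.06 and overlapping groups. Atrip shares its strand with the overlapping Trex1, so counts could pass between them.

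The 7 genes of the fork and of the checkpoint clamp had a median log2 fold change of -0.50, or -0.47 without deleted replicate 1. In 5 of them both deleted libraries lay under both controls, beside 22.9% of all genes. Clspn encodes claspin, which travels with the fork and hands the signal of ATR to CHK1. It measured 157 and 118 CPM in controls and 70.9 and 84.0 CPM in deleted libraries, with a log2 fold change of -0.81 (SE 0.22, unadjusted p = 0.00728, adjusted p = 0.206, edgeR). The deleted libraries were at 51.6% and 61.1% of the control mean, and control replicate 2 was the lower of the controls. Topbp1, which switches ATR on, had the most counts of any member: 453 and 429 CPM in controls and 238 and 337 CPM in deleted libraries, with a log2 fold change of -0.61 (SE 0.23, unadjusted p = 0.0282, adjusted p = 0.327, edgeR). The controls were close together and the deleted libraries were not. Timeless, which with Tipin holds the polymerases and the helicase of the fork together, measured 91.0 and 75.1 CPM against 51.6 and 53.0 CPM, with a log2 fold change of -0.64 (SE 0.21, unadjusted p = 0.0178, adjusted p = 0.279, edgeR). It was one of the genes in which the deleted libraries lay close to each other.

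Tipin had a log2 fold change of -0.50 and Hus1, a ring subunit of the clamp, one of -0.35, both with groups that did not overlap. In Tipin the lower of the deleted libraries was replicate 2. Rad17, which loads the clamp, had a log2 fold change of -0.14, and Rad9a, the clamp subunit that carries TOPBP1, had the single positive value of the 38, 0.16 with a 95% interval of -0.36 to 0.68. Both had overlapping groups. Rad9a overlaps Ppp1ca on the other strand, and the strand setting of the counting is not given in the sources used here. The genes that couple the fork to ATR were thus lower in both deleted libraries, while the genes of the clamp and its loader had the smaller values; the difference between them was not tested.

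The 5 genes of end resection, which cut back a broken end to start recombination, had a median log2 fold change of -0.46. It was -0.57 without deleted replicate 1. In all 5 genes both deleted libraries lay under both controls, beside 22.9% of all genes. Rad50, the ATPase that tethers broken ends, measured 152 and 132 CPM in controls and 77.9 and 93.9 CPM in deleted libraries, with a log2 fold change of -0.71 (SE 0.20, unadjusted p = 0.00829, adjusted p = 0.213, edgeR). The deleted libraries were at 54.7% and 66.0% of the control mean, which is further from the controls than the controls were from each other. Exo1, the exonuclease of long resection tracts, measured 69.4 and 62.6 CPM against 42.7 and 46.9 CPM, with a log2 fold change of -0.54 (SE 0.20, unadjusted p = 0.0297, adjusted p = 0.333, edgeR). The partners of Rad50 had log2 fold changes of -0.40 for Mre11a, the nuclease, and -0.46 for Nbn, the subunit that binds ATM. Nbn measured 53.5 and 34.4 CPM in controls, a wider gap than the one between its lower control and the deleted libraries at 33.3 and 29.3 CPM. Rbbp8, which starts resection as CtIP, had a log2 fold change of -0.25.

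The 9 genes of homologous recombination had the lowest median of the roles, a log2 fold change of -0.51. All 9 had both deleted libraries under both controls, beside 22.9% of all genes. Without deleted replicate 1 the median of the 9 was -0.43, above that of end resection. Blm, the helicase that dissolves joined chromatids, is on chromosome 7 at 87599879-87680005. It measured 143 and 132 CPM in controls and 64.5 and 104 CPM in deleted libraries, with a log2 fold change of -0.70 (SE 0.23, unadjusted p = 0.0172, adjusted p = 0.277, edgeR). Xrcc2, which works in the strand exchange step of recombination, measured 28.7 and 25.5 CPM against 13.4 and 19.2 CPM, with a log2 fold change of -0.72 (SE 0.25, unadjusted p = 0.0198, adjusted p = 0.289, edgeR). In both genes deleted replicate 1 was near 50% of the control mean, at 47.0% and 49.6%, and replicate 2 was at 75.6% and 71.0%. Palb2, the bridge between BRCA1 and BRCA2, measured 35.1 and 29.0 CPM against 18.1 and 23.0 CPM, with a log2 fold change of -0.63 (SE 0.23, unadjusted p = 0.0277, adjusted p = 0.325, edgeR). Rad54l, a DNA motor of the same step, was at 88.7 and 66.7 CPM against 41.9 and 58.2 CPM, with a log2 fold change of -0.62 (SE 0.24, unadjusted p = 0.0303, adjusted p = 0.335, edgeR). Rad54l overlaps Lrrc41 on the other strand, and the strand setting of the counting is not given in the sources used here.

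Brca1, the ligase that directs resection and recombination, measured 141 and 129.8 CPM in controls and 85.9 and 117 CPM in deleted libraries. Brca2, which acts on the single-stranded DNA that resection leaves, measured 135 and 124 CPM in controls and 67.2 and 117 CPM in deleted libraries. Deleted replicate 2 lay nearer to the controls in both genes, at 86.7% and 90.0% of the control mean, while deleted replicate 1 was at 63.4% and 51.8%. Their log2 fold changes were -0.40 and -0.50, with 95% intervals of -0.88 to 0.08 and -1.07 to 0.08. Bard1 was alike in this, with a log2 fold change of -0.51 and the deleted libraries at 52.6% and 87.6% of the control mean. Xrcc3 and Rad51c, which act in complex with each other, had log2 fold changes of -0.48 and -0.22. Rad51c held the fewest counts of the 38, from 106 to 157, which limits its precision.

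The 9 Fanconi genes had a median log2 fold change of -0.28, or -0.18 without deleted replicate 1. In 5 of them both deleted libraries lay under both controls, beside 22.9% of all genes. Fancd2 and Fanci encode the pair of proteins that the pathway marks with ubiquitin at a crosslink, and they were the Fanconi genes with an unadjusted p under 0.05. Fancd2, on chromosome 6 at 113481676-113547011, measured 74.2 and 74.1 CPM in controls and 37.6 and 45.6 CPM in deleted libraries. Its log2 fold change of -0.81 (SE 0.20, unadjusted p = 0.00365, adjusted p = 0.154, edgeR) was the lowest of the 38, with a 95% interval of -1.27 to -0.36. Without deleted replicate 1 its log2 fold change was -0.78. Fanci, on chromosome 7 at 86536815-86595151, measured 36.2 and 39.4 CPM against 22.0 and 25.6 CPM, with a log2 fold change of -0.65 (SE 0.21, unadjusted p = 0.0159, adjusted p = 0.267, edgeR). The deleted libraries were at 50.8% and 61.6% of the control mean for Fancd2 and at 58.3% and 67.8% for Fanci.

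The genes of the core complex, which attaches the ubiquitin, lay closer to the controls. Fanca, a large scaffold of the complex, measured 79.0 and 66.8 CPM in controls and 56.0 and 76.7 CPM in deleted libraries, a log2 fold change of -0.12 with a 95% interval of -0.63 to 0.38. Its groups overlapped, and deleted replicate 2 was at 105% of the control mean. Fancc, Fancg, Fancl, which is the ligase itself, and Fancm, the translocase that anchors the complex, had log2 fold changes from -0.28 to -0.19. For Fancg, Fancl and Fancm the groups overlapped, and deleted replicate 2 was at 93.2% to 96.6% of the control mean. Fancb had a log2 fold change of -0.36 and Brip1, a helicase that binds BRCA1, one of -0.35, both with groups apart. Whether the core complex differed from Fancd2 and Fanci was not tested, and Fanca, Fancc, Fancl, Fancd2, Fanci and Brip1 overlap other genes on the opposite strand, as Fancc and Fancl also do on their own.

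Trp53bp1, which shields broken ends from resection, and Mdc1, which reads phosphorylated H2AX beside a break, had log2 fold changes of -0.43 and -0.45. Trp53bp1 measured 59.9 and 66.0 CPM in controls and 33.7 and 60.0 CPM in deleted libraries. Mdc1 measured 87.8 and 98.6 CPM in controls and 49.3 and 87.3 CPM in deleted libraries. In both genes deleted replicate 1 alone stood away from the other libraries, at 53.6% and 52.9% of the control mean, and replicate 2 was at 95.3% and 93.6%. The median log2 fold change of the pair was -0.16 without deleted replicate 1.

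**Figure D2:**
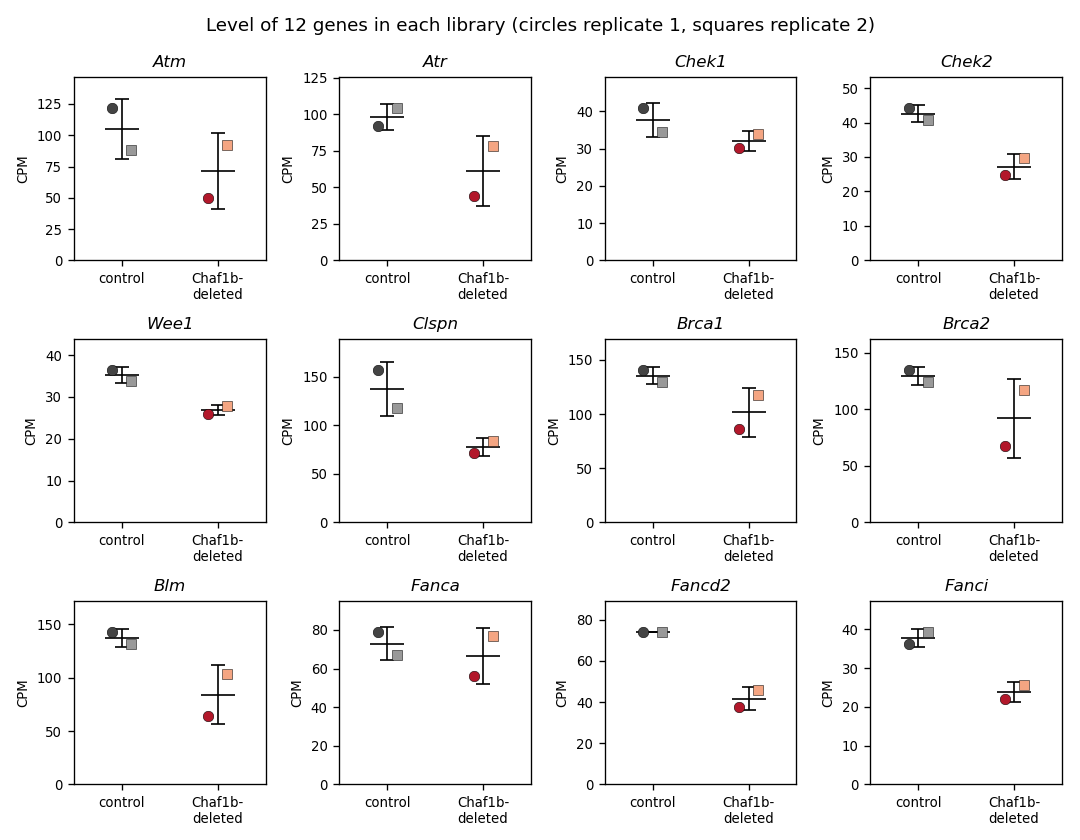
Level in CPM of 12 genes in each library, with replicate 1 as circles and replicate 2 as squares. The line is the mean of the 2 libraries of a group and the bar its SD. Fancd2 was at 74.2 and 74.1 CPM in controls and 37.6 and 45.6 CPM in deleted libraries, while the groups of Atm and Fanca overlapped.

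Deleted replicate 1 was lower than deleted replicate 2 in 33 of the 38 genes, with a median log2 ratio of -0.27. Over all genes with counts in every library this median was -0.21, and 64.9% of genes were lower in replicate 1. Control replicate 2 was lower than control replicate 1 in 30 of the 38, with a median log2 ratio of -0.16, against -0.02 over all genes. The ratio of each deleted library to the control mean was set beside exon length. Among the 38 genes this length ran from 1211 bases in Tipin to 14164 in Trp53bp1, with a median of 5465. Across the 38 genes, the correlation of log2 exon length with the log2 ratio to the control mean was -0.54 in deleted replicate 1 (Pearson r, and Spearman rho -0.54) and 0.19 in deleted replicate 2 (both measures). The points of each correlation share 1 library and the same controls. Over the 14978 genes tested with an annotated exon length the same values were 0.04 and -0.07 in replicate 1, and 0.04 and 0.07 in replicate 2.

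Among genes with exons of 8000 bases or more, the median log2 ratio of all genes was -0.40 in deleted replicate 1 and 0.13 in replicate 2. The 6 members of this class, among them Atm, Atr, Brca1 and Brca2, had medians of -0.92 and -0.17. Among genes with exons of 4000 to 6000 bases, all genes had medians of -0.15 and 0.06, and the 12 members there, among them Topbp1, Rad50, Blm and Fanci, had -0.80 and -0.40. In each of the 5 length classes the median of the members was under that of all genes in both deleted libraries. The part of exon length in the members' values was not tested.

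**Figure D3:**
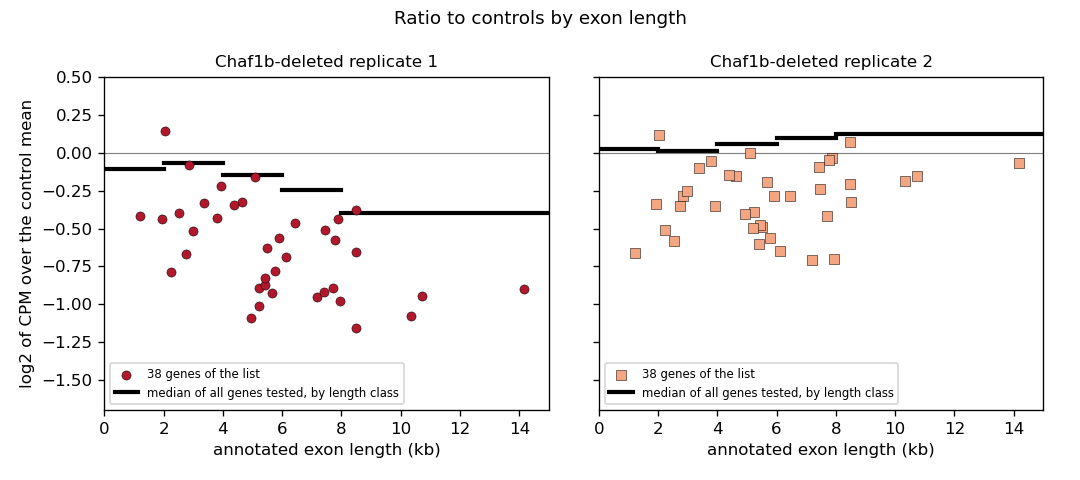
Log2 ratio of CPM to the control mean (y axis) against annotated exon length in kb (x axis), for the 38 genes (points) in deleted replicate 1 (left) and 2 (right). Black lines are medians of all genes tested in 5 length classes: for 8000 bases or more they are -0.40 on the left and 0.13 on the right, and most members lie under the line of their class.

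The median of other genes of the same pathways was nearer to 0. Of 40 such genes, 32 had a log2 fold change under 0 and 8 over it, the median was -0.28, and 0 were called. Of them 23 lay apart from the controls as lower and 3 as higher, beside 22.9% and 21.4% of all genes. At an unadjusted p under 0.05, 5 were lower and 2 were higher, beside 3.1% and 9.15% of all genes. H2afx, the histone variant that is phosphorylated beside breaks, measured 126 and 151 CPM in controls and 491 and 332 CPM in deleted libraries, a log2 fold change of 1.62 (SE 0.29, adjusted p = 0.0798, edgeR). Rif1, which acts with 53BP1 against resection, measured 337 and 279.6 CPM in controls and 128 and 228 CPM in deleted libraries, with a log2 fold change of -0.79. H2afx was thus higher in both deleted libraries, while its reader Mdc1 stood away from the controls, as lower, in deleted replicate 1 alone. Rpa1 and Rpa2, which coat single-stranded DNA, overlapped between the groups; these 2 genes were named after their values were seen.

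End joining, which seals breaks without a template, was covered by 10 genes with a median log2 fold change of -0.31. Of these 7 were under 0, 0 were called and 3 had an unadjusted p under 0.05 as lower, beside 3.1% of all genes. Lig3, a DNA ligase, had a log2 fold change of -0.61 and Xrcc6, which encodes Ku70, one of -0.58. Of 21 p53 target genes, 17 had a positive log2 fold change, 12 had an unadjusted p under 0.05 as higher, beside 9.15% of all genes, and the median was 0.81. Perp, a membrane protein of p53-driven death, was the 1 called: it rose from 11.9 and 12.6 CPM to 41.7 and 46.3 CPM, a log2 fold change of 1.87 (SE 0.22, adjusted p = 0.0330, edgeR), and its adjusted p was 0.0630 with the replicate block. Btg2, a growth-restraining target, measured 61.7 and 60.6 CPM against 129 and 144 CPM, a log2 fold change of 1.18 (adjusted p = 0.0692, edgeR). As log2 ratios to the control mean, the p53 targets had medians of 0.75 and 0.81 in the deleted libraries, and the 38 genes -0.64 and -0.29. Over all genes tested these medians were -0.17 and 0.065, so deleted replicate 1 lay lower than replicate 2 over all genes too.

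Genes of the cycle were read beside the members, since some checkpoint and recombination genes are expressed mainly in dividing cells. The 20 S phase genes had a median log2 fold change of -0.26, with 15 under 0, 0 at an unadjusted p under 0.05 and 0 called. Their largest differences were in Mcm4 and Mcm6, subunits of the replicative helicase, at -0.50 and -0.51. The 18 G2/M genes had a median of -0.39, with 17 under 0 and 0 called. Of them 17 lay apart from the controls as lower, beside 22.9% of all genes. At an unadjusted p under 0.05 stood 6, all lower, beside 3.1% of all genes as lower. Mki67, the proliferation marker, measured 2943 and 3193 CPM in controls and 1002 and 1860.3 CPM in deleted libraries, a log2 fold change of -1.10 (adjusted p = 0.229, edgeR), and Cenpe, a kinetochore motor, had one of -0.79. The summed level of the G2/M genes was 6773 and 7172 CPM in controls and 3679 and 4744 CPM in deleted libraries, and that of the S phase genes 4192 and 3413 CPM against 3202 and 3014 CPM. Without deleted replicate 1 the medians were -0.51 for G2/M and -0.41 for S phase genes. The part of the cell cycle in the members' values was not tested.

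Markers of other cells were counted in the same libraries, and their part in the members' values was not tested. Of 7 neutrophil markers 6 had a positive log2 fold change, with Mmp8 at 1.69 and Ltf at 0.94, both granule proteins. Of 6 monocyte and macrophage markers 4 were positive, with Cx3cr1 at 1.36 and Adgre1 at 0.75, while Ccr2 and Csf1r, named after their values were seen, were at -0.998 and -0.17, and their summed level was 863 and 1433 CPM in controls against 1895 and 944 CPM. Mast and basophil markers summed to 829 and 536 CPM against 726 and 709 CPM, with Ms4a2 at -0.98 and Fcer1a at 0.51. Erythroid markers summed to 86.9 and 54.9 CPM against 40.6 and 57.0 CPM, with Hba-a1 at 1.80 and Car1 at -0.72. All 5 megakaryocyte markers were positive, with Pf4 at 1.40 and Ppbp at 1.66, and summed to 94.5 and 92.6 CPM against 139 and 238 CPM. Lymphoid markers, of which 5 of 6 were tested, were low, at 7.96 and 14.1 CPM against 23.2 and 20.1 CPM in sum, with Il7r at 1.25. Stem and progenitor markers summed to 1177 and 1205 CPM against 1067 and 1134 CPM. Of these 8 genes 5 were positive and 3 negative, with a median log2 fold change of 0.16. Among them Flt3, a receptor of multipotent progenitors, rose from 4.66 and 5.31 CPM to 19.3 and 22.7 CPM (log2 fold change 2.09, adjusted p = 0.0383, edgeR, and 0.0958 with the replicate block). Myb had a log2 fold change of -0.59. Interferon-response genes with the lowest p were Cxcl10 at 2.35 and Oasl2 at 3.85, and Oasl2 was at 250 CPM in deleted replicate 1 and 20.3 CPM in replicate 2.

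**Figure D4:**
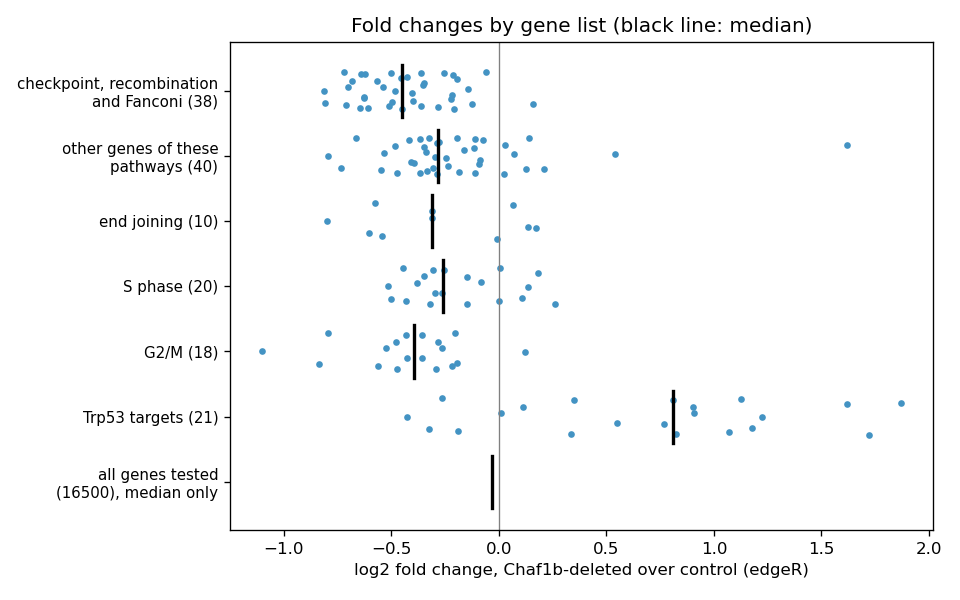
Fitted log2 fold changes (Chaf1b-deleted over control) of single genes (points) in 6 gene lists, with the number of genes in brackets and the median as a black line; for all 16500 genes tested only the median is drawn. The 38 genes have a median of -0.45, the other genes of these pathways -0.28, S phase genes -0.26, G2/M genes -0.39 and p53 (Trp53) targets 0.81.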

How the data were processed

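The authors aligned reads of ribosome-depleted, stranded total RNA libraries with STAR (v2.7) to mm9 and counted them per gene with HTSeq-count (v0.11.1), per the labels and methods, and the deposited values are raw counts, 1 library per table. The annotation release and strand setting are not given in the sources used here. Atr, Bard1 and Exo1 also share their strand with overlapping genes. Clspn, Rad50, Xrcc3 and Trp53bp1, among others, overlap genes on the other strand. Of 43629 identifiers, 33068 are in the NCBIM37 annotation, from which names, coordinates (counted from 1) and exon lengths were taken. Rows that name no gene were left out. They held 54.5% and 53.6% of all reads recorded in controls and 49.7% and 58.2% in deleted libraries. Reads on no annotated gene were 42.3% and 42.1% of unique reads in controls and 35.8% and 48.3% in deleted libraries.

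Counts were compared with edgeR 4.0.16 (limma 3.58.1, R 4.3.3): expression filter with a minimum count of 10, TMM factors from 0.926 to 1.06, glmQLFit and glmQLFTest with no covariate, and Benjamini-Hochberg adjustment over 16500 genes. DESeq2 1.42.0, other edgeR tests, scalings and filters, the replicate block and each library left out were alternatives. The quasi-likelihood test was tried on simulated data whose changes were larger than those of the members. How well it finds changes of the members' size was not measured. The members and lists were chosen with earlier results of these data known. Values per library are given for members with an unadjusted p under 0.05 or apart by 1.5-fold and for 12 fixed members; from other lists, called genes and the 2 with the lowest p; others by role. The results of some listed genes are not reported here. A share of 3 counts is 0.118 to 0.162 CPM. Replicates of a group differed by more than counting noise (chi-square per degree of freedom 39.1 and 59.7). Wilson intervals cover counting error only, and reads carry no molecular identifiers. Intervals of log2 fold changes come from the edgeR fit and include the spread between libraries.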

Additional observations from a re-analysis of the deposited data

How the results depend on the processing

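The median log2 fold change of the 38 genes ran from -0.47 to -0.42 over other scalings, filters and DESeq2, and from -0.51 to -0.36 with 1 library left out. With 1 library left out, 35 to 37 genes were lower, 30 to 36 lay apart from the controls, and 2 to 18 had an unadjusted p under 0.05 (2 without control replicate 1, 8 without deleted replicate 1). Calls of members numbered 1 with DESeq2, 12 at an unadjusted p under 0.05 with 1.5-fold, and 0 under every other alternative. Over all genes, calls ran from 3 to 808 higher and 0 to 79 lower, beside 61 and 1 in the main test. Of 494 values of single members under an alternative, 490 kept direction and side of the threshold. With 1 library left out, 3 members crossed 0: Atrip ran from -0.15 to 0.029, Rad17 from -0.37 to 0.064 and Fanca from -0.26 to 0.00758, as did the mast cell marker Fcer1a, from -0.014 to 1.33. List medians that crossed 0 were those of S phase genes (-0.48 to 0.025), stem and progenitor (-0.000908 to 0.19), neutrophil (-0.00971 to 0.72), monocyte (-0.31 to 0.86), mast (-0.30 to 0.41) and erythroid markers (-1.02 to 0.077). The cause was not tested. Without the low-count filter the median of all genes moved by -0.10.

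With the replicate number as a block, the median was -0.47 and 0 members were called. At an unadjusted p under 0.05 stood 16 members, and the share of all genes in that fit is not given here. The replicate numbers are not known to pair the libraries: deviations of same-numbered libraries correlated at 0.0101 over genes. Chaf1b lost its call with at least 10 counts in every library (adjusted p = 0.0651, edgeR), as did Perp and Flt3 (0.0651 for both), and Flt3 also when scaled by library size alone (0.0581) or by the size factors of DESeq2 (0.0503).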
